A study of Saccharomyces cerevisiae with 2 samples.

Results

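A set of 60 ribosome biogenesis and nucleolar processing genes of budding yeast (Saccharomyces cerevisiae) were described on the 2 arrays of the series. They were listed by name, with earlier results of these data known and no condition on signal: a gene was taken where the platform annotation gave a probe set its symbol alone, and where a gene had several the brightest of them on the mean log2 scale stood for it. All 60 were found, among 5656 genes named in this way and 9335 probe sets on each array. Both samples are replicate cultures of the histone H3 K4,36,79R mutant, in which arginine replaces the lysines at positions 4, 36 and 79. The cells grew in selective galactose medium, where a wild-type H3 gene was on as well, and were harvested 18 hours after the move to selective glucose medium, which switches the wild-type gene off and leaves the mutant as the only H3 source. Total RNA was taken at an OD600 of 0.5 to 0.7. Both samples share the mutation, the shift and the time, and the wild-type cultures and the other times that the series' design text names were not analysed here. The values therefore give levels in the mutant and the spread between its replicates, and no effect of the mutation.

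A ribosome is built in the nucleolus, where RNA polymerase I transcribes a long precursor rRNA. Small nucleolar ribonucleoproteins (snoRNPs) modify that precursor, the small-subunit processome folds and cuts the part that becomes 18S rRNA, and a separate series of helicases, GTPases and scaffold proteins matures the large subunit. In growing yeast the genes for these factors form one of the best known coregulated groups, which responds to nutrients through the TOR and Sch9 kinases. The members fall into 6 snoRNP core genes, 27 small-subunit genes, 25 large-subunit genes and 2 that act on both subunits.

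Signals are deposited MAS5 values in arbitrary units, 1 per probe set, from 1 array per culture. A probe set's signal depends on its own affinity, so levels are not comparable from gene to gene, and a median over a list is a description only. The median signal of all probe sets was 25.5 on replicate 1 and 25.7 on replicate 2. The brightest of the probe sets shared by both histone H3 genes gave 1360.1 and 1261, and it does not tell a mutant from a wild-type copy. Control probe sets at the transcript ends, which show how intact the RNA was, gave 3′ over 5′ ratios of 1.61 and 1.57 for ACT1 and of 2.85 and 3.25 for SPT15. Genes of sporulation, a state that growing cells do not enter, had a median signal of 8.18 over 22 genes, 21 of them above background. SPR6 had the highest signal, with 58.1 on replicate 1 and 64.6 on replicate 2, and MEI4 the lowest, with 1.68 and 1.67. Of the 22 genes, 4 averaged 20 or more. Among these, IME2 had the most positive difference between the arrays, with 21.7 and 25.4, and DIT1 the most negative, with 29.1 and 25.9. From total RNA of a whole culture, a change in the share of growing cells and a change in RNA per cell cannot be told apart.

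All 60 members exceeded the background of both arrays. That background, the 95th percentile of 13 probe sets for foreign or antisense sequence, stood at 1.86 for replicate 1 and 1.69 for replicate 2, and 98.7% of all genes exceeded it, so the count sorts few genes. Of the 60, 55 reached a signal of 20 on both arrays, against 72.8% of all genes. The median signal of the members was 57.9, with a range from 13.9 to 533, and that of all 5656 genes was 39.3. Members with a mean signal under 20 were NOC3, NOP7, KRR1 and UTP4. The snoRNP core genes had a median of 236, the small-subunit genes 51.7 and the large-subunit genes 63.1.

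**Figure D1:**
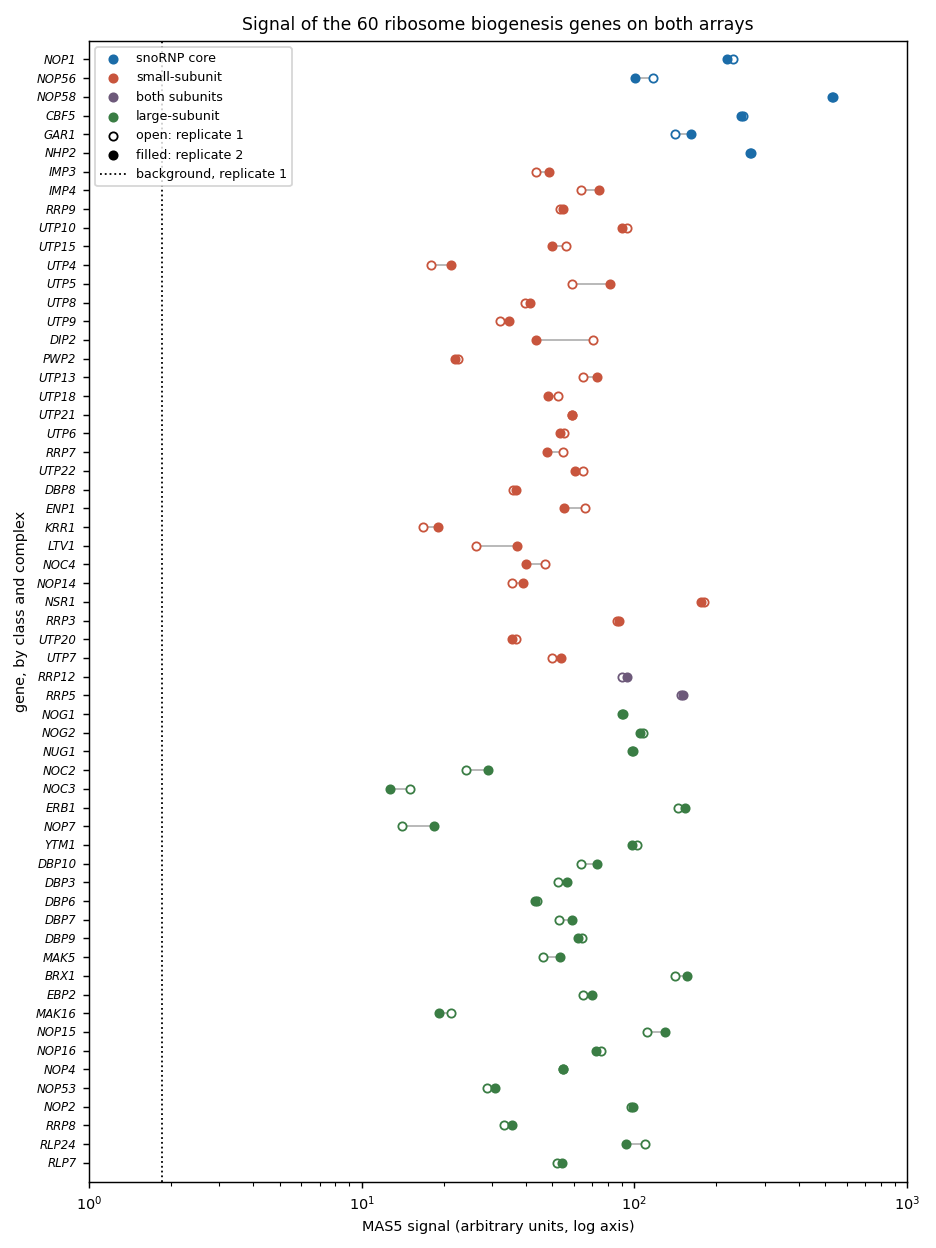
MAS5 signal in arbitrary units (log axis) of each of the 60 members, grouped by class and complex, with an open point for replicate 1, a filled point for replicate 2 and a dotted line at the background of replicate 1. All members lie right of the line, and the longest line between 2 points is that of DIP2, at 70.2 and 43.6.

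The box C/D snoRNP core places 2′-O-methyl groups on rRNA and forms the body of the U3 particle. NOP1 (YDL014W), the methyltransferase that is fibrillarin in animals, gave 229 on replicate 1 and 218 on replicate 2. NOP56 (YLR197W), which holds the methyltransferase in the particle together with Nop58, gave 117 and 100.5. NOP58 (YOR310C) gave 535 and 530.4. All 3 were lower on replicate 2, with log2 differences (replicate 2 minus replicate 1) of -0.21 to -0.01, but NOP58 was higher there after quantile normalization and after loess. The NOP58 value came from a probe set of the _s_at type, which can match more than one transcript. Its probe set of the plain _at type gave 315 and 345, the opposite order. Those of the _i_at and _r_at types were higher on replicate 2 as well, by 0.17 and 0.35 on the log2 scale.

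Box H/ACA snoRNPs convert uridine to pseudouridine. CBF5 (YLR175W), the pseudouridine synthase, gave 251 and 246. NHP2 (YDL208W), a small RNA-binding subunit, gave 266 and 269. Those probe sets agreed within 1.02-fold between the cultures. GAR1 (YHR089C), a subunit with glycine- and arginine-rich ends, gave 141 and 161, higher on replicate 2 with a log2 difference of 0.19.

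The processome starts on the 5′ leader of the precursor with UTP-A, a complex also linked to rRNA gene transcription. UTP5 (YDR398W) stood out in it, with 59.1 on replicate 1 and 81.4 on replicate 2, a mean of 70.3 ± 15.7 (SD, n = 2) and a 1.38-fold difference. UTP4 gave 17.9 and 21.3, also higher on replicate 2. UTP15 gave 56.1 and 49.9, and the order of the arrays was reversed. UTP10, which encodes a large helical-repeat protein, gave 93.8 and 90.3. UTP8 gave 39.7 and 41.5, and UTP9 gave 32.2 and 34.6. Within the complex 4 of 6 genes were higher on replicate 2. Without UTP4, which averaged under 20, it was 3 of 5, near the 56.3% of all genes averaging 20 or more.

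UTP-B, a set of WD-repeat proteins and partners that binds next to U3, held the member with the widest gap. DIP2 (YLR129W), which encodes the subunit also called Utp12, gave 70.2 on replicate 1 and 43.6 on replicate 2, a mean of 56.9 ± 18.8 (SD, n = 2). It was 1.61-fold lower on replicate 2, the only member over 1.5-fold apart, where 0.684% of the 4241 genes averaging 20 or more were. Its partners did not share the gap. PWP2, the subunit also called Utp1, gave 22.5 and 22.0, and UTP21 gave 58.8 and 58.9. UTP6 gave 55.4 and 53.2, UTP18 gave 52.5 and 48.3, and UTP13 gave 64.9 and 72.7. The other 5 subunits thus lay within a log2 difference of -0.12 to 0.16.

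UTP-C and the U3 proteins join the growing particle. UTP22 gave 64.6 and 60.6, and RRP7, its partner, gave 54.9 and 47.9, so both UTP-C members were lower on replicate 2. For UTP22 this holds for the brightest probe set only, since the next brightest gave 28.6 and 30.7, the opposite order. RRP9, the WD-repeat protein specific to the U3 snoRNP, gave 53.5 and 54.6. IMP3 and IMP4 work with Mpp10 to pair U3 with the precursor. IMP3 gave 43.4 and 48.6, and IMP4 gave 64.0 and 74.4. All 3 of this set, too few to set against the 56.3% of all brighter genes, were higher on replicate 2, by 0.03 to 0.22 on the log2 scale, and stayed so under median centring, quantile normalization and loess.

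The other small-subunit members include late factors that travel with the particle to the cytoplasm. LTV1 (YKL143W), whose protein leaves the pre-40S head late in maturation, gave 26.2 on replicate 1 and 37.2 on replicate 2, a mean of 31.7 ± 7.81 (SD, n = 2) and a 1.42-fold difference. ENP1, which encodes the protein that binds beside Ltv1, went the other way, with 65.9 and 55.0. KRR1, a KH-domain factor, gave 16.7 and 19.1. NOP14 gave 35.6 and 39.1, while NOC4, whose product pairs with Nop14, gave 47.0 and 40.2. These pairs of physical partners therefore had opposite signs between the arrays. Other partners, such as IMP3 with IMP4 and, on the brightest UTP22 probe set, UTP22 with RRP7, shared a sign. No rate for such pairs was computed. NSR1, the yeast relative of nucleolin, gave 179 and 175. RRP3, which encodes a DEAD-box helicase, gave 86.4 and 87.7, and DBP8, for another, gave 35.9 and 36.8. UTP7 gave 49.8 and 53.6, and UTP20, the longest member, gave 36.9 and 35.5.

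RRP5, an RNA-binding protein needed for the cuts that release both 18S and 5.8S rRNA, gave 148 and 151. RRP12, which helps to export both subunits, gave 89.9 and 93.6. Neither was over 1.1-fold apart.

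In the large-subunit class the Nop7 complex, needed to process the precursor of 5.8S and 25S rRNA, had members of unequal spread. NOP7 (YGR103W) gave 14.1 on replicate 1 and 18.3 on replicate 2, 16.2 ± 3.0 (SD, n = 2), a 1.30-fold difference at a low signal. ERB1, its partner, gave 144 and 154. YTM1, which the Rea1 ATPase strips from the particle, gave 102 and 98.0. The Noc proteins move the particle through the nucleus. NOC2 gave 24.1 and 29.1, and its partner NOC3, which averaged under 20, gave 15.0 and 12.7, the opposite order.

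The 6 large-subunit helicase genes lay between a 1.02-fold and a 1.15-fold difference. DBP10 gave 63.4 and 73.2, MAK5 gave 46.4 and 53.4, and DBP7 gave 52.7 and 59.0. DBP3, whose product speeds cleavage at site A3, gave 52.5 and 56.6. DBP6 gave 43.9 and 43.1, and DBP9 gave 64.2 and 62.0. Of the 6, 4 were thus higher on replicate 2, near the 56.3% of all brighter genes. The GTPases act as checkpoints on the pre-60S particle, and the probe sets used for their genes differed by -0.04 to 0.02 on the log2 scale. NOG1 gave 89.9 and 91.1, NOG2 gave 108 and 105, and NUG1 gave 99.0 and 97.8. The dimmer NOG2 probe set gave 33.7 and 37.6, higher on replicate 2 with a log2 difference of 0.16.

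NOP2, which encodes a cytosine methyltransferase for 25S rRNA, gave 96.8 and 98.5. RRP8, for an adenine methyltransferase on the same RNA, gave 33.3 and 35.6. RLP24 resembles ribosomal protein L24, which later takes its place, and gave 109.6 and 93.3. RLP7, which resembles L7, gave 52.0 and 54.1. Of the remaining large-subunit factors, NOP15, an RNA-recognition-motif protein, gave 111 and 129. BRX1 gave 141 and 156. EBP2 gave 64.9 and 70.0. Of the 7 genes of this group 5 were higher on replicate 2, where 56.3% of all brighter genes were. NOP53, which brings the exosome helicase to the precursor, gave 28.7 and 30.8, and NOP4 gave 54.6 and 54.9. NOP16 gave 75.3 and 72.1, and MAK16 gave 21.2 and 19.2.

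Between the arrays 35 members were higher on replicate 2 and 25 were lower, with a median log2 difference of 0.02, against 0.03 over all 5656 genes. A log2 difference over 0.32 in size was found for 4 members, UTP5, LTV1 and NOP7 higher on replicate 2 and DIP2 lower, where 9.44% of all genes were so far apart. Among genes averaging 20 or more, 3 of 56 members were, 5.36%, against 5.09% of the 4241 genes. In that set 2 members were higher on replicate 2 by over 0.32, against 2.43% of genes, and 1 was lower, against 2.66%. By any amount, 32 of the 56 were higher on replicate 2, where 56.3% of genes were. The median size of the log2 difference was 0.10 for these 56 members and 0.10 for the 4241 genes, and 0.18 for genes averaging under 20. Each of these shares of members lies near that of all genes. With 1 array on each side none of the differences has a test. The 4 members named here stayed over 0.32 after median centring, quantile normalization and loess.

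**Figure D2:**
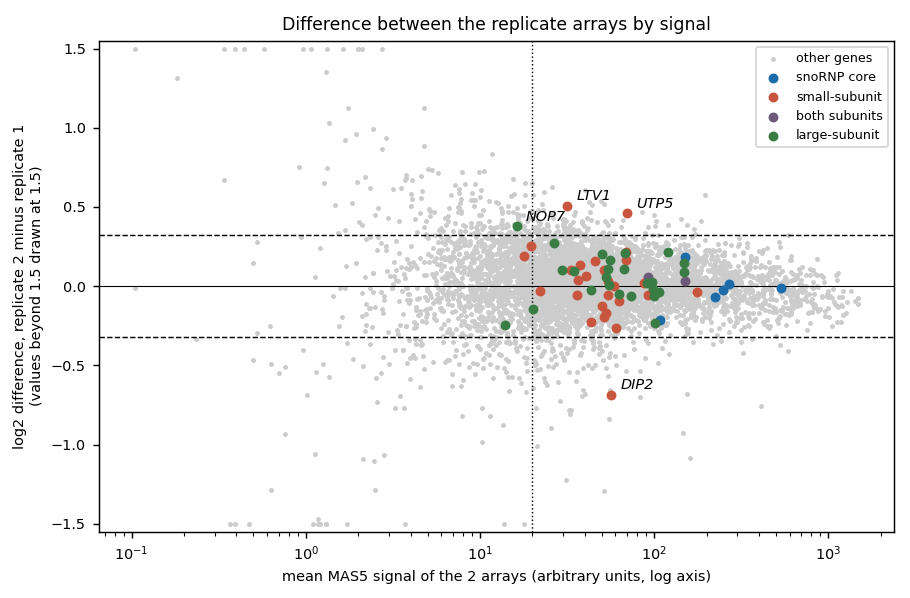
Log2 difference between the arrays (replicate 2 minus replicate 1) against the mean MAS5 signal (arbitrary units, log axis), with the members coloured by class and other genes in grey, dashed lines at 0.32 and -0.32 and a dotted line at a signal of 20. Of the members, 4 lie outside the dashed lines: LTV1 at 0.51, UTP5 at 0.46, NOP7 at 0.38 and DIP2 at -0.69.

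The members lie on 14 chromosomes, with 8 each on chromosomes IV and XII. On chromosome XII 6 of the 8 were lower on replicate 2, and on chromosome VIII 5 of 5 were higher. Of genes averaging 20 or more, 64.2% of 372 on XII were lower on replicate 2 and 39.1% of 184 on VIII, against 43.7% of the 4241. On some other chromosomes members and genes differed. On XI 3 of 3 members were higher while 53.7% of genes were lower, and on X 2 of 2 members were lower while 45.9% of genes were. On others they did not, such as IV, where 6 of 8 members were higher and 39.1% of genes were lower. The counts of members include NOC3 on XII and UTP4 on IV, which averaged under 20, and the shares of genes do not. DIP2, NOC3, RLP24 and NOP56, the 4 members on XII with the most negative values, had log2 differences of -0.69 to -0.21. The 50 probe sets nearest to each in number (mean signal 20 or more) had medians of -0.03 to -0.07. After this local median was taken off, DIP2 stood at -0.65, LTV1 at 0.50, UTP5 at 0.42 and NOP7 at 0.36. The part of probe set number in these values was not tested otherwise.

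**Figure D3:**
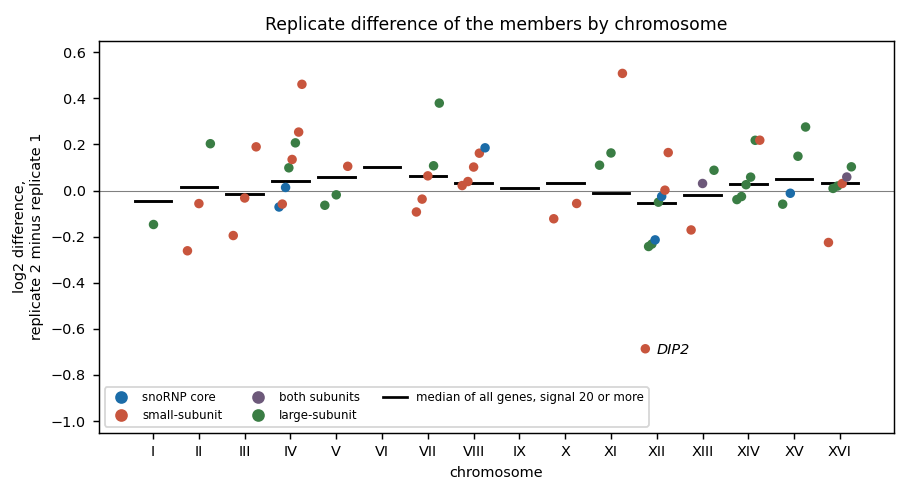
Log2 difference between the arrays (replicate 2 minus replicate 1) of each member by chromosome, coloured by class, with a bar at the median of all genes of that chromosome averaging 20 or more. The bar of chromosome XII lies at -0.05, with DIP2 far under it at -0.69.

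In gene order, 10 adjacent pairs joined a member to another listed ribosome biogenesis gene, and none joined 2 members. Of these pairs 7 were in tandem, 2 converged and 1 diverged. RRP3 and SSF1, the divergent pair, gave log2 differences of 0.02 and -0.19. GAR1 and RPF1, which converge, gave 0.19 and 0.32. NOP56 lies beside PWP1, and NOC3 beside CMS1. PWP1 gave 97.4 and 86.3, and CMS1 gave 33.6 and 27.5, both lower on replicate 2 like their neighbours. UTP13, which was higher on replicate 2, lies beside RSA3, at 39.5 and 32.8. The sign was shared in 5 of the 10 pairs, and the same share over all adjacent genes was not computed. Member genes ran from 471 to 7482 bases, with a median of 1662. Across the 60 genes Spearman's rho of length with signal was -0.16, and across 5486 protein-coding genes it was -0.0049, both descriptions over probe sets that share the same arrays.

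Several probe sets, 22 in all, were assigned to 4 members, and these disagreed. UTP20 (YBL004W) had 10. The brightest, of the plain _at type, gave 36.2 ± 1.00 (SD, n = 2), and 6 of the 10 exceeded background on both arrays. A further probe set of the plain type gave 1.31 and 1.82 and did not. UTP22 (YGR090W) had 6, with 62.6 ± 2.85 for the brightest and 3.76 to 29.6 for the other 5, all above background. NOP58 ran from 45.4 to 533 over 4 probe sets, and the mean signals of the NOG2 probe sets were 106 and 35.6. The annotation gives each of these probe sets the same single symbol and does not say which part or strand of the gene it covers. The values of these genes thus hold for the probe set named, and for UTP20 so does the call above background.

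**Figure D4:**
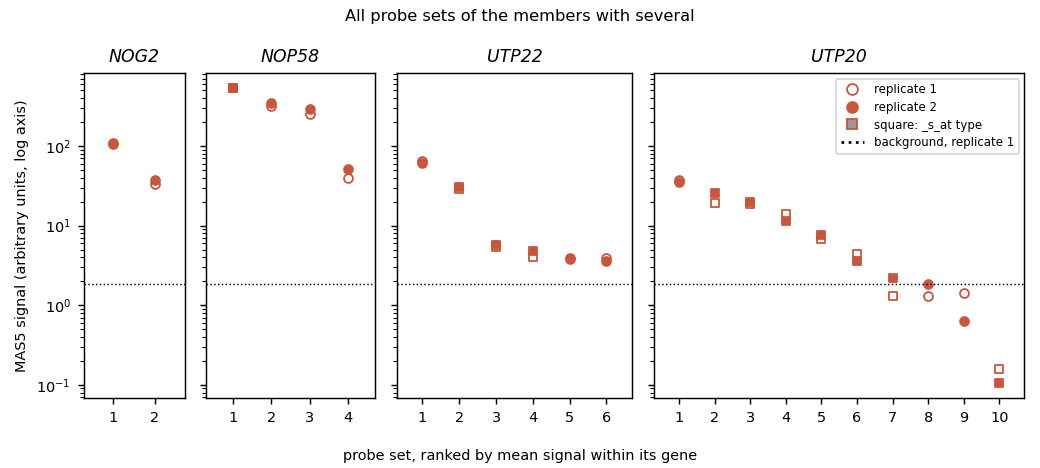
MAS5 signal in arbitrary units (log axis) of every probe set of NOG2, NOP58, UTP22 and UTP20 on replicate 1 (open) and replicate 2 (filled), ranked by mean signal within the gene, with squares for the _s_at type and a dotted line at the background of replicate 1. The UTP20 probe sets include 4 that do not exceed background on both arrays, beside the brightest at 36.2.

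Other factors of the pathway were described from lists. Of 42 other small-subunit genes 41 were measured and all were above background, with a median signal of 46.8 and a median log2 difference of 0.05. SNU13, the RNA-binding protein that nucleates box C/D particles, gave 523 and 559, and FAF1 gave 14.2 and 14.8. TSR1, a GTPase-like protein on the pre-40S particle, gave 70.9 and 50.2, and UTP30 gave 26.1 and 35.0. Among the genes of this list averaging 20 or more, these had the most negative and the most positive difference. All 46 measured of 47 other large-subunit genes were above background, with a median signal of 45.2 and a median log2 difference of 0.03. TIF6, which keeps the subunits apart, gave 182 and 167. IPI1 gave 14.5 and 14.9. TMA16 was higher on replicate 2, at 21.9 and 30.0, and REI1, a cytoplasmic pre-60S factor, was lower, at 36.2 and 27.0. Over 0.32 apart were 4 of the 41 genes of the first list (9.76%) and 3 of the 46 of the second (6.52%), against 9.44% of all genes. Among genes averaging 20 or more, these were 4 of 36 (11.1%) and 3 of 45 (6.67%), against 5.09% of all such genes. Of the 36, 27 were higher on replicate 2, and of the 45, 27 were, where 56.3% of all such genes were.

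Among 9 measured genes for other snoRNP proteins and assembly factors the median signal was 34.4. RVB1 and RVB2 encode paired ATPases that help to assemble snoRNPs. RVB1 gave 165 and 164, and RVB2 gave 119 and 98.8. HIT1 gave 6.03 and 9.07 at a low signal, and BCD1, a box C/D assembly factor, gave 33.0 and 35.9. The 28 genes of the exosome, RNase MRP and related nucleases had a median signal of 33.8. POP1, a protein of RNase MRP and RNase P, gave 91.1 and 96.6, and POP6 of the same particles gave 9.59 and 9.43. LRP1, an exosome cofactor, gave 29.8 and 38.4, and LAS1, a nuclease that cuts the second internal spacer, gave 23.1 and 18.8. RNA polymerase I and its factors had a median of 55.7 over 16 genes. HMO1, a high-mobility-group protein of the rRNA genes, gave 167 and 151, and UAF30 gave 4.46 and 4.22. RPA14, a subunit of the enzyme, gave 103.7 and 80.8, and RRN7 gave 18.0 and 23.1. Over 0.32 apart were 2 of the 9 snoRNP genes, 2 of these 28 and 2 of these 16, against 9.44% of all genes. The 2 of the snoRNP list averaged under 20, and 0 of its 5 brighter genes were so far apart. Among genes averaging 20 or more, 1 of 20 in the exosome and nuclease list and 2 of 14 (14.3%) in the RNA polymerase I list were. That compares with 5.09% of all such genes.

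Regulators of the pathway were also on the arrays, with a median signal of 29.0 over 13 genes. DOT6 and TOD6 encode repressors that bind the PAC element of ribosome biogenesis promoters. DOT6 gave 151 and 145, and TOD6 gave 65.1 and 64.1. STB3, whose product binds the RRPE element, gave 16.3 and 24.3, 1.49-fold higher on replicate 2 and the only regulator over 0.32 apart. That is 1 of 13, 7.69%, against 9.44% of all genes, and STB3 averaged 20.3, close to the low signals. Among regulators averaging 20 or more it is 1 of 10, against 5.09% of all such genes. SFP1, an activator of these genes, gave 23.1 and 20.0. SCH9, the kinase that inactivates the repressors, gave 48.7 and 47.7. TOR1 gave 32.5 and 36.6, and TOR2 gave 54.8 and 49.7. FHL1, IFH1 and CRF1 act mainly on ribosomal protein genes. FHL1 gave 9.54 and 11.5, IFH1 gave 44.5 and 49.3, and CRF1 gave 7.08 and 7.66. Of the general factors, RAP1 gave 23.9 and 24.8, ABF1 gave 30.4 and 27.7, and REB1 gave 9.12 and 7.66. Transcript signals of this kind say nothing of the regulators' activity.

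Probe sets for snoRNAs, the RNA part of snoRNPs, and for rRNA were on the arrays as well. Of 76 annotated snoRNA genes 57 had a probe set of their own, with a median signal of 19.0, and 55 were above background. This list was added after the deposited values were seen. SNR17A, a U3 gene, gave 10.0 and 11.2. SNR67 gave 370 and 275, and SNR190 gave 0.734 and 0.521, under background. Among the 28 averaging 20 or more, SNR66 had the most negative difference, with 28.5 and 14.2, and SNR8 the most positive, with 36.6 and 47.2. Over 0.32 apart were 16 of the 57 snoRNA genes, 28.1%, against 9.44% of all genes and 22.5% of genes averaging under 20. Of the 16, 12 were lower on replicate 2, as were 246 of the 534 among all genes. Of the 28 brighter snoRNA genes, 9 were over 0.32 apart, where 5.09% of all genes of that brightness were. Control probe sets for 18S rRNA gave 2.78 to 14.8 on replicate 1 and 2.08 to 17.7 on replicate 2, and those for 25S rRNA 1.1 to 33.6 and 0.208 to 36.3. How such RNAs were primed for labelling is not given in the sources used here, so their signals do not measure abundance.

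**Figure D5:**
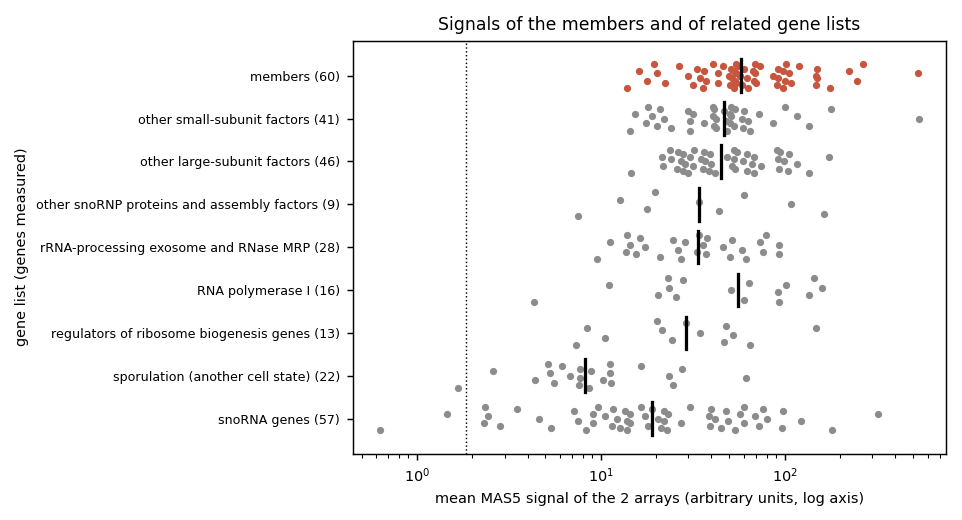
Mean MAS5 signal of both arrays (arbitrary units, log axis) for each measured gene of the members and of 8 related lists, with a bar at each list's median and a dotted line at the background of replicate 1. The bar lies at 57.9 for the members, 55.7 for RNA polymerase I, 19.0 for snoRNA genes and 8.18 for sporulation genes.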

How the data were processed

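Each array's deposited column holds linear MAS5 intensities, as the submitters' processing notes name the tool. Its version and scaling target, and a genome build, are not given in the labels or files. Biotin-labelled targets were made from about 20 µg of total RNA, per the labels' protocols. The platform annotation gave 1 symbol to 6504 probe sets, several to 328 and none to 2503, and no probe set with several symbols named a member. Gene order, length and biotype came from the RefSeq table of assembly R64. Signals entered without rescaling, as log2 for differences, with Python 3.11.15, pandas 2.3.3 and statsmodels 0.14.6. Levels are given as both signals or as their mean and SD. With 1 group of 2 arrays no p-value was computed, and the number of arrays limits the precision. The design text calls the replicates separate cultures. The fold count was tested on simulated data with less noise than lies between these arrays, so that test gives no error rate for them. The members, lists, classes and thresholds were chosen with earlier results of these data known, although the rule for members uses names alone. Every member was named, and from each list the highest and lowest signal and, from a mean signal of 20, the largest difference each way, with all 13 regulators. The planned motif counts in promoters were not run, since no sequence was used here.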

Additional observations from a re-analysis of the deposited data

How the results depend on the processing

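The median member signal of 57.9 became 61.5 with members of at least 20 only, and ran from 57.7 to 59.0 without replicate 1 or without replicate 2. The 4 members over 0.32 apart on the log2 scale became 2 with a mean signal of at least 50, where 41 members are left, 1 with an offset of 50 and 1 at 1.5-fold. They stayed 4 under median centring, quantile normalization, loess, averaging of a gene's probe sets and, as an alternative chosen after seeing the data, subtraction of the nearest probe sets. All 60 members stayed above background without either replicate and against the highest foreign probe set. The count was 59 with the dimmest probe set of a gene, where UTP20 was lost, 55 with a signal of 20, and 51 with the 95th percentile of sporulation genes. The median log2 difference ran from 0.01 to 0.03 over its alternatives. The sign changed or went to 0 for 5 members (CBF5, NOP58, UTP21, NOP4 and RRP5) under a scaling, all within 0.03 of 0 as deposited. Subtraction of the nearest probe sets turned the sign of 8 members (DBP9, CBF5, NOP4, NHP2, NOG1, RRP3, DBP8 and UTP7), all within 0.11 of 0 as deposited. The promoter motif alternatives were not run. No paired analysis was possible because both arrays belong to a single group. Low signals limit what can be read, since the arrays vary most there.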
